A study of Mus musculus with 163 samples.

Results

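The genes described here form the KIT, PI3K and mTOR route that is known for waking dormant mouse oocytes. The 9 symbols were taken by name and looked up through the gene identifiers of a table of read counts from single oocytes. Of these 9 genes, 8 had a row among the 21950 genes of the table: Kit, Pik3ca, Akt1, Foxo3, Tsc1, Mtor, Rptor and Cdkn1b. Tsc2 had no row under its identifier and was not analysed here.

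The study asked at which step of in vitro gametogenesis the transcriptome of mouse oocytes departs from that of oocytes grown in the body. Single oocytes were sequenced at 2 stages, as growing oocytes (GROs) and as fully grown oocytes (FGOs), after they had been freed of follicular cells and of the zona pellucida. The iPSC-derived oocytes (23 GROs and 24 FGOs) came from BVSC-iPSCs, 1 female line reprogrammed from adult tail tip fibroblasts that carries the Blimp1-Venus and Stella-ECFP reporters. These were turned into primordial germ cell-like cells in a medium holding BMP4, SCF, LIF and EGF, then combined with gonadal somatic cells of E12.5 Swiss Webster embryos whose own germ cells had been depleted, to make reconstituted ovaries. The paper reports some oocytes without Stella-ECFP in such ovaries and holds that they likely came from germ cells left after incomplete depletion. The labels give no reporter status for the sequenced oocytes. The gonad-derived oocytes (24 GROs and 24 FGOs) came from reconstituted ovaries built from all cells of E12.5 gonads, so that they skipped the step that makes primordial germ cells in vitro (IVP) but passed through in vitro oocyte differentiation (IVD) and, as FGOs, in vitro growth (IVG). The 6 dpp FGOs (24 oocytes) grew in vitro from follicles taken at 6 days post partum and therefore skipped IVP and IVD. The in vivo GROs (24 oocytes) and in vivo FGOs (20 oocytes) were collected from the ovary; the strain and age of their donors are not given in the sources used here. All IVG oocytes had FSH in the medium, with BMP15 and GDF9 early in culture, and the iPSC-derived follicles were cultured slightly longer than the others. SCF is the ligand of KIT, so germ cells on the iPSC route met added KIT ligand that the other routes did not receive at that step. The iPSC-derived oocytes also differ from the gonad-derived ones in their genetic origin and culture length, and these differences cannot be told apart from IVP. The paper reports that iPSC-derived and gonad-derived GROs were larger than in vivo GROs, and its model used oocytes selected by size. Here all oocytes were used, and the part of oocyte size in ratios that rest on GROs was not tested.

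KIT is a receptor tyrosine kinase on the oocyte surface, and its ligand is made by granulosa cells. Once bound, KIT activates PI3K, which makes the membrane lipid that recruits AKT; AKT then inactivates the transcription factor FOXO3, a brake on follicle activation, and the TSC complex, a brake on mTORC1. Loss of Foxo3, of Tsc1 or of Cdkn1b in mice is known to lead to early activation or loss of the primordial follicle pool. Most of this control acts through phosphorylation and the movement of FOXO3 out of the nucleus, which a count of transcripts does not measure. The GROs and FGOs had already left the dormant state, so the data describe the transcripts of the route during and after growth, not during activation itself.

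Each library held between 2.17 and 13.7 M counted reads (M, 1e+06 reads), with a median of 6.93 M. All 12 oocyte markers checked had a row, and each reached 1 CPM (counts per 1e+06 counted reads) in the 3 groups of GROs. In FGOs 11 of the 12 did so, the exception being Sohlh1, a transcription factor of early oocytes, at 0.251 to 0.993 CPM. The summed granulosa markers (10 of 12 in the table) stood at up to 154 CPM in all oocytes but 4, namely 6 dpp FGO 12 (1616 CPM), in vivo FGO 19 (412 CPM), 6 dpp FGO 10 (369 CPM) and in vivo FGO 16 (340 CPM). Both lists moved over growth. The median summed oocyte markers went from 52485 to 22692 CPM in iPSC-derived, 46612 to 26001 CPM in gonad-derived and 51768 to 38958 CPM in in vivo oocytes. On these routes 8, 7 and 5 of the 12 genes were lower past 2-fold (list median log2 ratios -1.54, -1.21 and -0.82) and 0 were higher. Between sources 1 of the 12 was lower in 6 dpp against in vivo FGOs (-0.58) and 1 in gonad-derived against in vivo GROs (-0.18). In iPSC-derived against gonad-derived GROs 1 was higher (0.15). The median summed granulosa markers were 50.6 to 54.6 CPM in GROs and 88.9 to 127 CPM in FGOs, and 2 of 8 tested were higher over growth in iPSC-derived, 3 of 8 in gonad-derived and 4 of 9 in in vivo oocytes, with 0 lower. In each FGO group 1 gene, Cyp19a1, had the highest pooled level of the list, at 61.9 to 77.2 CPM. In GROs the highest was Cyp19a1 or Nr5a2, at 20.1 to 27.3 CPM. The sums therefore do not stand for all genes of the list. Between sources, 3 of 7 granulosa markers tested were lower in gonad-derived against 6 dpp FGOs (list median -0.84), beside 2.59% of all genes past 2-fold. The median sums of these groups were 116 and 127 CPM. In iPSC-derived against gonad-derived FGOs 1 of 7 was lower (-0.35). Of 10 tested in 6 dpp against in vivo FGOs, 1 was higher and 2 were lower (0.12). Of 8 tested in gonad-derived against in vivo GROs, 1 was higher and 2 were lower (-0.36). The part of these shifts in the ratios below was not tested. The 7 theca and stroma markers had median sums of 0.748 to 3.97 CPM, with 177 CPM in 1 oocyte of the 6 dpp FGOs; 4 of 5 tested were lower in gonad-derived than in 6 dpp FGOs and 3 of 4 higher in 6 dpp than in in vivo FGOs. The 3 blood markers pooled to at most 0.0739 CPM in any group. The labels name no animal, donor or culture for an oocyte. Each group was therefore treated as 1 sample, and the differences below have no replicate check and no p-value. A level is the reads of a gene pooled over a group, in CPM of its pooled reads, with an exact Poisson 95% interval that covers counting error only, since the reads were amplified and carry no molecular identifiers. A difference is a log2 ratio of pooled levels after adding 0.5 CPM to each, and a gene was called higher or lower past a 2-fold difference. CPM is a share of the counted reads, and no spike-in rows were present. A ratio between GROs and FGOs therefore does not give the change in transcripts per oocyte.

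The 24 in vivo GROs were not of 1 kind. Oocytes numbered 17 to 24 in the titles lay on the other side of the first principal component from oocytes 1 to 16 (8 of 8 against 16 of 16), and that component held 25.3% of the variance within the group. Median read totals were 6.82 M in oocytes 17 to 24 and 6.87 M in oocytes 1 to 16. Between these oocytes 2 of the 8 measured genes passed 2-fold, against 8.52% of 12447 genes tested. In the 18 corresponding blocks of consecutive numbers in the other 6 groups, 0.263% to 3.24% of genes passed 2-fold. Lysis took place in strips of 8 tubes, but the labels do not tie numbers to strips, and what sets oocytes 17 to 24 apart was not tested. Pathway ratios and numbers of called genes that rest on in vivo GROs are therefore given with all 24 and again without oocytes 17 to 24. This alternative was chosen after seeing the data. Marker lists, and counts of single FGOs above or below all GROs, are given with all 24 GROs only.

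**Figure D1:**
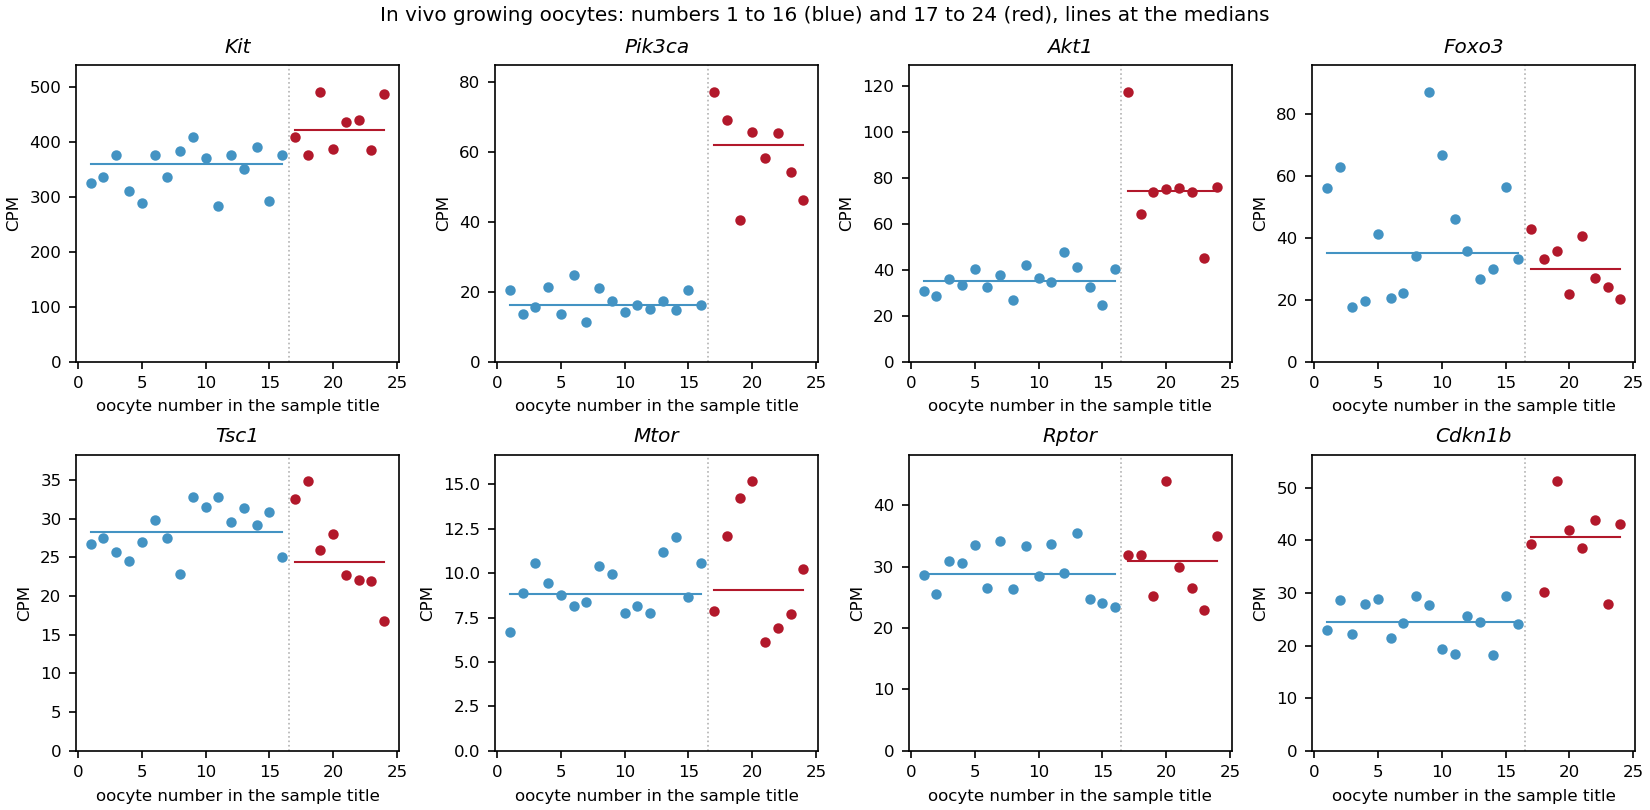
Level of the 8 genes (1 panel each, vertical axis in CPM) in each of the 24 in vivo GROs against the oocyte number in its title (horizontal axis), with oocytes 1 to 16 in blue, 17 to 24 in red and lines at their medians. Pik3ca ran from 11.3 to 24.9 CPM in oocytes 1 to 16 and from 40.4 to 77.0 CPM in oocytes 17 to 24, while Kit overlapped between them.

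Of the 64 ratios of the 8 genes over 8 comparisons, 6 passed 2-fold. In growth in vivo (FGO against GRO), 1 of 8 was lower, Cdkn1b, against 23.7% of 13148 genes tested passing 2-fold in either direction. In growth of iPSC-derived oocytes, 3 of 8 passed, Foxo3 higher and Mtor and Rptor lower, against 22.0% of 13115 genes. In growth of gonad-derived oocytes, 0 of 8 passed, against 15.8% of 13068 genes. In iPSC-derived against gonad-derived FGOs (IVP@FGO, the study's name), 2 of 8 passed, with Kit lower and Foxo3 higher, against 6.21% of 12889 genes. Names such as IVP@FGO stand here for comparisons between groups, and effects of the culture steps were not tested. No member passed in IVP@GRO (background 3.83%), in IVD@GRO, gonad-derived against in vivo GROs (7.04%), in IVD@FGO, gonad-derived against 6 dpp FGOs (2.59%), or in IVG@FGO, 6 dpp against in vivo FGOs (4.38%). Without in vivo GROs 17 to 24, 0 of 8 passed in growth in vivo (background 22.4%) and 0 of 8 in IVD@GRO (6.12%). The median log2 ratio of the 8 genes was -0.59 in growth in vivo, where that of all genes tested was -0.11. Without oocytes 17 to 24 these medians were -0.32 and -0.05. In IVP@FGO the median of the 8 genes was -0.48, where that of all genes was -0.08. It was -0.01 in growth of iPSC-derived oocytes (all genes -0.11) and 0.12 in growth of gonad-derived oocytes (-0.05). In IVP@GRO it was -0.24 (-0.004), in IVD@FGO 0.16 (0.02) and in IVG@FGO -0.17 (-0.04). In IVD@GRO it was -0.34 (-0.04), and -0.04 (-0.01) without oocytes 17 to 24. These comparisons share groups (the iPSC-derived FGOs enter both comparisons in which Foxo3 was called), so their ratios are not independent of each other.

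**Figure D2:**
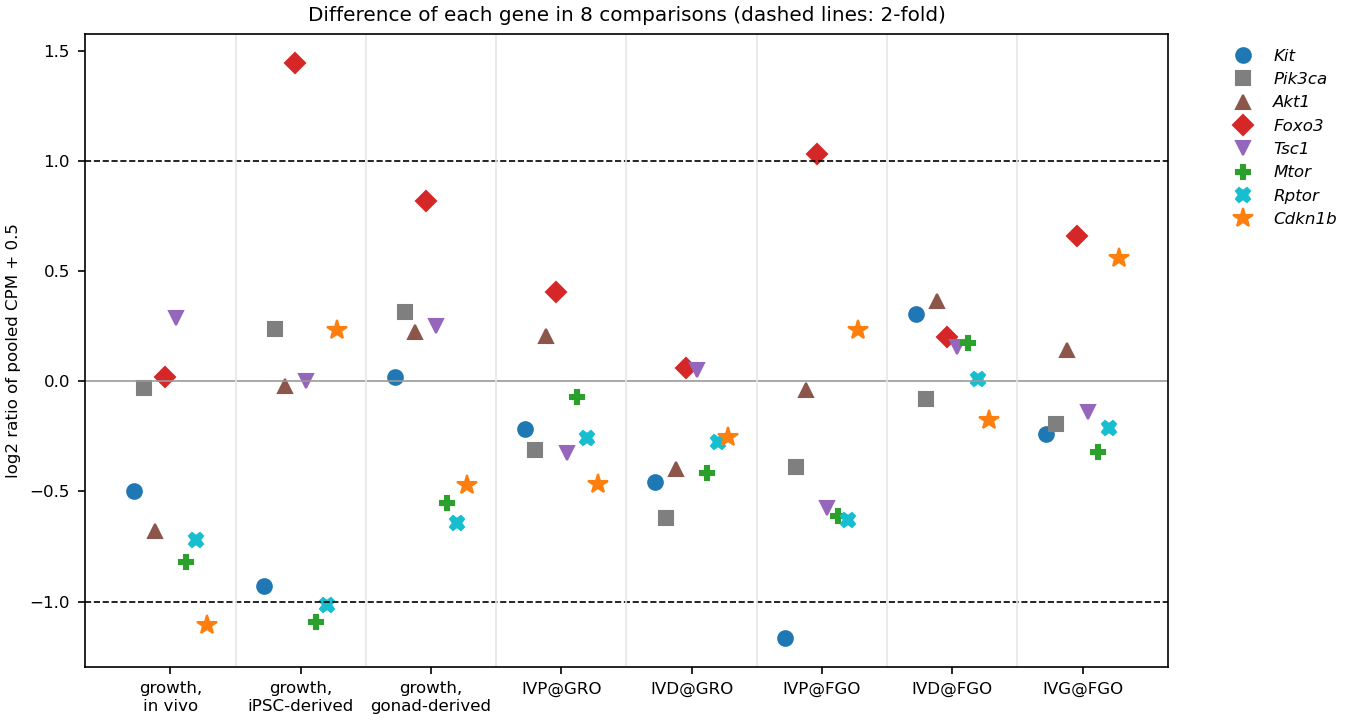
Log2 ratio of pooled CPM, 0.5 CPM added (vertical axis), of each of the 8 genes (symbols) in the 8 comparisons (horizontal axis), with dashed lines at 2-fold. Foxo3 stands at 1.45 in growth of iPSC-derived oocytes and 1.03 in IVP@FGO, Kit at -1.17 in IVP@FGO and Cdkn1b at -1.11 in growth in vivo.

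Kit (chr5:75574987-75656722, plus strand, GRCm38.p6), the receptor at the head of the route, was lowest in the fully grown oocytes of the iPSC route. Its lowest, median and highest levels were 171, 229 and 347 CPM in iPSC-derived GROs, 179, 266 and 338 CPM in gonad-derived GROs, and 284, 377 and 491 CPM in in vivo GROs. They were 70.1, 133 and 179 CPM in iPSC-derived FGOs, 181, 259 and 406 CPM in gonad-derived FGOs, 89.6, 218 and 296 CPM in 6 dpp FGOs, and 181, 267 and 326 CPM in in vivo FGOs. Every iPSC-derived FGO (24 of 24) thus lay below every gonad-derived FGO, a separation of oocytes seen for 0.489% of the genes tested in IVP@FGO and for no other member. Pooled Kit was 123 CPM (95% interval 122 to 125) in iPSC-derived FGOs and 277 CPM (274 to 279) in gonad-derived FGOs, 2.24-fold apart (log2 ratio -1.17). By the medians of single oocytes the log2 ratio was -0.96, just inside 2-fold.

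The order of the 7 groups for Kit had clear ends and a flat middle. The interquartile range of the in vivo GROs lay above that of every other group and the interquartile range of the iPSC-derived FGOs below, while the 5 groups between them overlapped from neighbour to neighbour. Over growth, Kit in iPSC-derived oocytes went from 235 to 123 CPM (log2 ratio -0.93), and 22 of 24 FGOs lay below all GROs. In oocytes grown in vivo it went from 375 to 265 CPM (-0.50), and 16 of 20 FGOs lay below all GROs; the ratio was -0.40 without GROs 17 to 24, and the IVD@GRO ratio was -0.46 with all GROs and -0.36 without those 8. In gonad-derived oocytes growth left it at 273 and 277 CPM (0.02). The 6 dpp FGO with the most granulosa transcripts, oocyte 12, held 217 CPM of Kit, close to its group's median, and the lowest 6 dpp FGO for Kit, oocyte 3, was also the lowest for Pik3ca.

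Pik3ca (chr3:32397065-32466112, plus strand), which encodes the p110-alpha catalytic subunit of PI3K, was a low transcript. It ran from 9.36 to 21.8 CPM in iPSC-derived GROs (median 15.7), from 13.2 to 29.4 in gonad-derived GROs (19.5) and from 11.3 to 77.0 in in vivo GROs (20.5). Among FGOs it ran from 12.2 to 25.5 CPM in iPSC-derived (18.9), 13.4 to 36.7 in gonad-derived (24.5), 11.4 to 35.6 in 6 dpp (26.7) and 24.1 to 53.7 in in vivo oocytes (29.6). All neighbouring groups in the order of medians overlapped in their interquartile ranges, with iPSC-derived oocytes of both stages at the bottom; in vivo GROs 1 to 16 alone had a median of 16.1 CPM, between those of the iPSC-derived GROs and FGOs. The wide range of the in vivo GROs came from oocytes 17 to 24, at 40.4 to 77.0 CPM (median 61.9), which did not overlap with oocytes 1 to 16, at 11.3 to 24.9 CPM (median 16.1), a log2 ratio of 1.77. Of all genes tested between these oocytes, 6.73% did not overlap. The sign of its ratio changed with the oocytes used and with the summary. Growth in vivo gave -0.03 with all GROs, 0.82 without oocytes 17 to 24 and -0.95 with those oocytes alone, and IVD@GRO gave -0.62, 0.23 and -1.54. With all GROs kept, growth in vivo gave 0.03 with TMM or DESeq2 size factors and 0.52 by the medians of single oocytes, with 20 of 20 FGOs above the GRO median, and IVD@GRO gave -0.07 by the medians.

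Per kilobase of counted transcript, Pik3ca was a minor member of its family in every group. The 4 class I catalytic genes were compared on pooled CPM per kb, where Pik3cd, which encodes p110-delta, held 93.0% to 97.2% of their sum at 66.9 to 164 CPM per kb, and Pik3ca 1.16% to 3.74% at 1.65 to 3.20 CPM per kb. Pik3cg stayed at or below 0.0275 CPM per kb. The balance of Pik3cd over Pik3ca was widest in iPSC-derived FGOs, where pooled Pik3cd reached 957 CPM, 2-fold over the 473 CPM of iPSC-derived GROs (log2 ratio 1.01).

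Akt1 (chr12:112653821-112674884, minus strand), the kinase that passes the PI3K signal on, had levels that overlapped between all groups. Lowest, median and highest levels were 24.3, 42.0 and 79.8 CPM in iPSC-derived GROs, 28.6, 37.0 and 47.4 in gonad-derived GROs and 24.7, 40.3 and 117 in in vivo GROs. The FGOs had 25.6, 40.7 and 69.5 CPM (iPSC-derived), 27.7, 39.5 and 91.6 (gonad-derived), 20.3, 33.0 and 42.3 (6 dpp) and 22.2, 27.7 and 42.5 (in vivo). The in vivo FGOs had the lowest median, and 7 of 24 gonad-derived FGOs lay above all 6 dpp FGOs. Growth in vivo took pooled Akt1 from 48.2 to 29.9 CPM (log2 ratio -0.68), whereas the ratios were -0.02 and 0.22 for growth of iPSC-derived and gonad-derived oocytes. As for Pik3ca, in vivo GROs 17 to 24 were high for Akt1, at 45.0 to 117 CPM (median 74.4) against 24.7 to 47.8 CPM (median 35.3) in oocytes 1 to 16. The growth ratio was -0.24 without oocytes 17 to 24 and -1.29 with those alone, and the IVD@GRO ratio was -0.40 with all GROs, 0.04 without and -1.01 with those alone.

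The start of Akt1 is shown because, among the windows of the 9 listed genes, it was the only one that held the FOXO core motif. Windows of 300 bases, from 250 before to 50 after each annotated start (RefSeq, GRCm38.p6), were searched on both strands for GTAAACA, whose reverse complement is TGTTTAC. Of 11 windows for the 9 listed genes, 1 window of Akt1 held it, at chr12:112674835-112675134 on the minus strand, starting 161 bases before the start site; the capitals mark it.
Akt1: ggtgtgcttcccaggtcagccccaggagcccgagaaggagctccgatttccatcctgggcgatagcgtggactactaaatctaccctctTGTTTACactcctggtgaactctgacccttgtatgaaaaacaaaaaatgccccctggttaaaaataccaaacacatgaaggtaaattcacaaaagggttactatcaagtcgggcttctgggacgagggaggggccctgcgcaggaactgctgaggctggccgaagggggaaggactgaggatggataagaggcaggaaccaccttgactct
The core was present in 3.65% of 32851 such windows and in 2.65% of 14072 windows of genes above 1 CPM in at least 3 oocytes. A match of these 7 letters is a description of the sequence and not of binding.

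Foxo3 (chr10:42181845-42276695, minus strand), the transcription factor that AKT keeps out of the nucleus, had a higher CPM in FGOs than in GROs on the iPSC route. Its lowest, median and highest levels were 28.0, 42.3 and 119 CPM in iPSC-derived GROs, 20.8, 37.3 and 73.5 in gonad-derived GROs, and 17.6, 33.6 and 86.9 in in vivo GROs. The FGOs had levels of 79.5, 132 and 236 CPM (iPSC-derived), 34.9, 69.3 and 125 (gonad-derived), 35.9, 54.0 and 127 (6 dpp) and 22.2, 32.9 and 78.4 (in vivo). The medians of the FGO groups were thus ordered by the number of culture steps. Among FGOs, the interquartile range of the iPSC-derived oocytes lay above that of the gonad-derived ones, those of gonad-derived and 6 dpp oocytes overlapped, and that of the in vivo oocytes lay below that of the 6 dpp ones. Pooled Foxo3 went from 51.5 to 141 CPM over growth of iPSC-derived oocytes, 2.72-fold (log2 ratio 1.45), with 16 of 24 FGOs above all GROs. Over growth of gonad-derived oocytes it went from 38.8 to 68.8 CPM (0.82), with 9 of 24 FGOs above all GROs. In vivo it was 37.2 CPM in GROs and 37.7 CPM in FGOs (0.02, or -0.11 without GROs 17 to 24).

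Set against gonad-derived FGOs, Foxo3 was 2.05-fold higher in iPSC-derived FGOs (log2 ratio 1.03), where 15 of 24 oocytes lay above all gonad-derived FGOs and 24 of 24 above their median. This call was a close one. The log2 ratio was 0.93 by the medians of single oocytes, 0.98 without iPSC-derived FGO 18, the highest of its group at 236 CPM, and 1.00, just inside 2-fold, without gonad-derived FGO 10, the lowest of its group at 34.9 CPM. In IVG@FGO the ratio was 0.66, with 24 of 24 6 dpp FGOs above the median of the in vivo FGOs, and in IVP@GRO it was 0.40. Foxo3 also varied more among oocytes of 1 group than most genes did, with an SD on the log2 scale of 0.43 to 0.61, where the median gene of a group had 0.319 to 0.401.

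With Kit low and Foxo3 high in iPSC-derived FGOs, the order of these genes per kb was reversed there. In iPSC-derived FGOs, Foxo3 stood at 52.4 CPM per kb and Kit at 36.2 CPM per kb. In the other 6 groups Kit was at 66.0 CPM per kb or more and Foxo3 at 25.5 CPM per kb or less. Within the FOXO family, Foxo3 held 71.0% of the per-kb sum in iPSC-derived FGOs. In all in vivo GROs it held 30.8% and Foxo1 68.0%, while in in vivo GROs 1 to 16 they held 48.1% and 50.7%. Of the exonic bases of Foxo1, 7.78% are also covered by Gm20402 on the opposite strand.

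**Figure D3:**
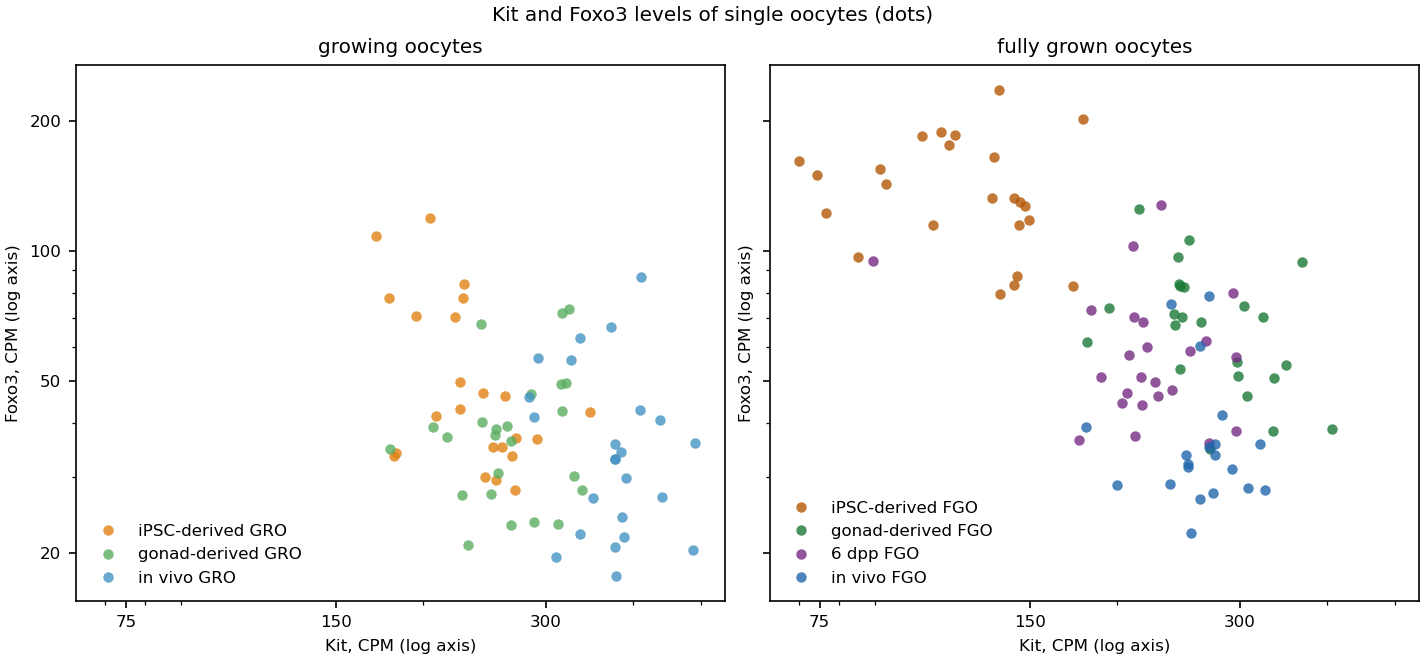
Foxo3 (vertical axis, CPM) against Kit (horizontal axis, CPM) in each oocyte, both axes on log scales, with GROs in the left panel and FGOs in the right panel and groups by colour. The 24 iPSC-derived FGOs lie at the upper left of the right panel, with Kit at 70.1 to 179 CPM and Foxo3 at 79.5 to 236 CPM.

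Tsc1 (chr2:28640993-28691172, plus strand), whose product hamartin stabilises the TSC complex that restrains mTORC1, differed little over growth on each route. In GROs it ran from 14.7 to 36 CPM (iPSC-derived, median 21.9), 19.5 to 39.8 (gonad-derived, 28.7) and 16.8 to 34.8 (in vivo, 27.5). In FGOs it ran from 9.08 to 29.1 CPM (iPSC-derived, 23.4), 24.6 to 65.3 (gonad-derived, 32.2), 15.9 to 39.3 (6 dpp, 29.8) and 23.2 to 50.1 (in vivo, 31.3). The iPSC-derived oocytes of both stages made up the bottom of the order, and the interquartile range of the next group, in vivo GROs, did not overlap with that of the iPSC-derived FGOs. The growth ratios were 0.29 in vivo (0.24 without GROs 17 to 24), 0.25 in gonad-derived and less than 0.01 from 0 in iPSC-derived oocytes. By the medians of single oocytes they were 0.18, 0.17 and 0.09. Without in vivo FGOs 5, 7, 19 and 22 the ratio in vivo was 0.16. In IVP@FGO pooled Tsc1 was 22.5 against 33.8 CPM (log2 ratio -0.57), and 18 of 24 iPSC-derived FGOs lay below all gonad-derived FGOs.

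Mtor (chr4:148448582-148557685, plus strand) and Rptor (chr11:119602905-119899591, plus strand), the kinase and the scaffold of mTORC1, were lower in FGOs than in GROs on all 3 routes sampled at both stages, past 2-fold on the iPSC route. Mtor ran from 2.99 to 10.6 CPM in iPSC-derived GROs (median 6.57), 4.24 to 11.1 in gonad-derived GROs (6.88) and 6.10 to 15.2 in in vivo GROs (8.81). In FGOs it ran from 0.843 to 6.77 CPM (iPSC-derived, 2.65), 1.84 to 11.2 (gonad-derived, 4.41), 1.40 to 6.35 (6 dpp, 3.97) and 2.88 to 7.63 (in vivo, 5.19). All GRO medians lay above all FGO medians, although neighbouring groups overlapped. The pooled Mtor levels rest on 472 to 1537 reads a group, because the transcript counted for it was 1248 bases long, 14.6% of its longest annotated form.

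Rptor, counted over 4242 bases, gave nearly the same order with more reads. It ran from 13.6 to 26.7 CPM in iPSC-derived GROs (median 19.7), 16.4 to 32.2 in gonad-derived GROs (26.0) and 23.0 to 43.9 in in vivo GROs (29.5). In FGOs it ran from 6.33 to 13.6 CPM (iPSC-derived, 10.0), 7.96 to 27.0 (gonad-derived, 15.1), 10.6 to 22.2 (6 dpp, 15.5) and 9.31 to 32.3 (in vivo, 16.4). The iPSC-derived FGOs stood lowest, with an interquartile range that did not overlap with that of the gonad-derived FGOs. A share of 0.624% of its exonic bases (84 bases) is also covered by Rptoros on the opposite strand, and the use of strand in counting is not stated.

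In growth of iPSC-derived oocytes both genes were called. Mtor went from 6.62 to 2.84 CPM (log2 ratio -1.09), with 15 of 24 FGOs below all GROs, and the ratio was -0.83 when 2 CPM was added in place of 0.5. Rptor went from 20.5 to 9.86 CPM (-1.02), with 23 of 24 FGOs below all GROs. Its ratio sat on the threshold. It was -0.94 with TMM, with DESeq2 size factors and by the medians of single oocytes, -0.92 with 2 CPM added, and inside 2-fold, by at most 0.01 (-0.99), when iPSC-derived FGO 2, 13, 14 or 23 or iPSC-derived GRO 4, 12 or 13 was left out. Growth in vivo gave -0.82 for Mtor and -0.72 for Rptor (-0.79 and -0.69 without GROs 17 to 24), and growth of gonad-derived oocytes gave -0.55 and -0.64. In IVP@FGO the ratios were -0.61 for Mtor and -0.63 for Rptor.

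Cdkn1b (chr6:134920401-134925525, plus strand), which encodes the CDK inhibitor p27, had a lower CPM in FGOs than in GROs in vivo. It ran from 13.0 to 22.9 CPM in iPSC-derived GROs (median 17.2), 16.1 to 36.9 in gonad-derived GROs (23.6) and 18.3 to 51.2 in in vivo GROs (27.9). In FGOs it ran from 9.73 to 36.7 CPM (iPSC-derived, 20.5), 11.5 to 24.5 (gonad-derived, 17.3), 13.2 to 27.5 (6 dpp, 20.1) and 9.33 to 18.6 (in vivo, 13.5). By median the in vivo GROs were thus highest and the in vivo FGOs lowest, the latter with an interquartile range below that of every other group. Pooled Cdkn1b went from 29.5 to 13.4 CPM over growth in vivo, 2.15-fold (log2 ratio -1.11), with 18 of 20 FGOs below all GROs. In vivo GROs 17 to 24 were high for Cdkn1b as well (27.9 to 51.2 CPM, against 18.3 to 29.5 CPM in oocytes 1 to 16). The growth ratio was -0.85, inside 2-fold, without oocytes 17 to 24 and -1.51 with those alone. The IVD@GRO ratio was -0.25 with all GROs, 0.004 without oocytes 17 to 24 and -0.66 with those alone. Oocytes 1 to 16 pooled to 24.6 CPM (median 24.4), beside 24.7 CPM in gonad-derived GROs.

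On the culture routes Cdkn1b went over growth from 24.7 to 17.6 CPM in gonad-derived oocytes (log2 ratio -0.47, with 23 of 24 FGOs below the GRO median) and from 17.7 to 20.8 CPM in iPSC-derived oocytes (0.23). Among FGOs it was higher after IVG, at 20.0 CPM in 6 dpp against 13.4 CPM in in vivo oocytes (0.56), and 14 of 24 6 dpp FGOs lay above all in vivo FGOs. Per kb, Cdkn1b held 55.8% to 73.8% of the sum of the CIP/KIP inhibitor genes in each group.

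**Figure D4:**
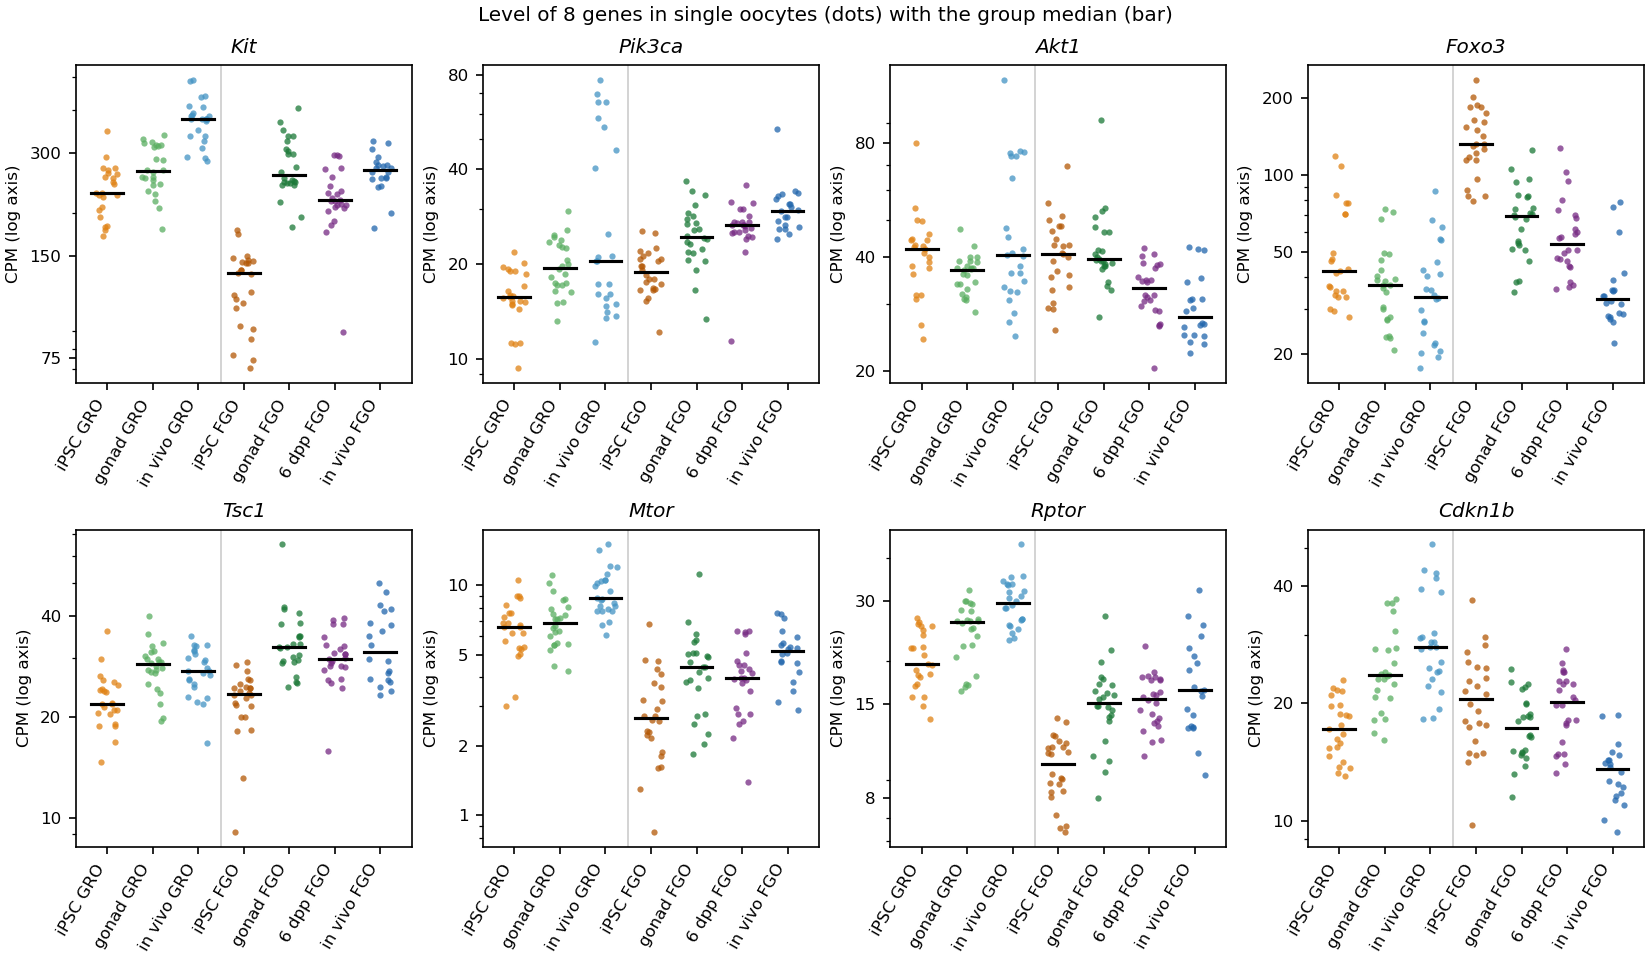
CPM of the 8 genes (1 panel each, vertical axis in CPM on a log scale) in every oocyte of the 7 groups (horizontal axis); points are oocytes and the bar marks the group's median. Median Kit is lowest (133 CPM) and median Foxo3 highest (132 CPM) in iPSC-derived FGOs, and Mtor and Rptor are lower in FGOs than in GROs of the same route.

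The rest of the pathway was read from lists of 104 further genes, of which 99 had a row. In growth in vivo, 19 of the 90 tested passed 2-fold (17 lower, 2 higher), a share of 21.1% beside the 23.7% of all genes. Without in vivo GROs 17 to 24, 15 of 90 passed (13 lower, 2 higher), 16.7% beside 22.4%: 12 of the 19 were kept, 3 were added, and 7 came inside 2-fold (Akt2, Cab39, Eif4ebp2, Eif4ebp3, Gadd45a, Grb2 and Igf1r, named after their values were seen). Those lower included Eif4ebp1, the translation repressor that mTORC1 phosphorylates (29.9 to 5.04 CPM), Inppl1, which encodes the lipid phosphatase SHIP2 (22.7 to 3.84 CPM), and Pik3r2, a PI3K regulatory subunit (30.8 to 8.46 CPM). Their log2 ratios were -2.46, -2.42 and -1.81 with all GROs and -2.45, -2.50 and -2.05 without GROs 17 to 24. Genes on the opposite strand cover 18.8% (Gm10602) and 1.48% (Phox2a) of the exonic bases of Inppl1 and 1.08% (6330537M06Rik) of those of Pik3r2. Skp2, the ubiquitin ligase subunit that targets p27, was higher (16.9 to 37.6 CPM, log2 ratio 1.13, or 1.09 without GROs 17 to 24), with 19 of 20 FGOs above all GROs. In growth of iPSC-derived oocytes 15 of 92 passed (8 higher, 7 lower), a share of 16.3% beside 22.0% of all genes, and in growth of gonad-derived oocytes 5 of 90 (all lower), 5.56% beside 15.8%. Pik3r1, the p85-alpha regulatory subunit, was higher in iPSC-derived FGOs than in GROs (41.4 against 12.2 CPM, 1.72), with 24 of 24 FGOs above all GROs. Oocytes did not overlap in this comparison for 8.01% of the genes tested. Among the genes lower there were Pik3r2 (log2 ratio -1.86, with 23 of 24 FGOs below all GROs), Eif4ebp1 (-1.70) and Ccne1 (-1.61). Mlst8, the other core subunit of mTORC1, was lower in FGOs on all 3 routes, with log2 ratios of -1.43 in vivo (-1.50 without GROs 17 to 24), -1.52 in iPSC-derived and -1.18 in gonad-derived oocytes. A share of 22.5% of its exonic bases is also covered by Bricd5 on the opposite strand. The list of 11 mTOR complex subunits had median log2 ratios of 0.18 in iPSC-derived and 0.14 in gonad-derived growth (all genes -0.11 and -0.05). In growth in vivo its median was -0.40, or -0.38 without GROs 17 to 24. Rictor, also of this list, was higher in FGOs, at 16.3 against 9.59 CPM (iPSC-derived) and 18.5 against 10.2 (gonad-derived). In vivo the ratio of Rictor was 0.59, or 0.41 without GROs 17 to 24.

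By list, members included, the counts in growth in vivo stand beside 23.7% of all genes with all GROs and 22.4% without GROs 17 to 24. The insulin and IGF1 receptors and adaptors had 4 of 7 tested genes lower (list median -1.01), and 2 of 7 (-0.71) without those oocytes, with Igf1r at -1.14 and -0.74 and Grb2 at -1.27 and -0.71. The mTORC1 effectors had 3 of 8 lower (-0.65), and 1 of 8 (-0.13) without them, with Eif4ebp2 at -1.19 and -0.93 and Eif4ebp3 at -1.03 and 0.21. The LKB1 and AMPK genes had 2 of 9 lower and 1 of 9 without those oocytes, and the amino acid sensing genes 2 of 16 and 3 of 16. The CIP/KIP inhibitors and partners had 2 of 10 lower and 1 higher (-0.58), and 3 lower and 1 higher (-0.57) without them. The AKT and GSK3 kinases had 1 of 5 lower with all GROs and 0 of 5 without GROs 17 to 24. The PI3K subunits (of 6), the phosphoinositide phosphatases with PDK1 (of 6) and the mTOR complex subunits (of 11) each had 1 lower in both settings, and KIT with its ligand, the FOXO factors and the TSC and RHEB genes had 0 of 2, 0 of 3 and 0 of 4 in both. Genes known as FOXO targets in other tissues had 1 of 11 higher and 1 lower in growth in vivo, and 1 higher and 0 lower without those oocytes. In each of the other 7 comparisons 10 were tested and 0 were lower past 2-fold. Of the 10, 2 were higher in IVP@FGO (list median -0.02), beside 6.21% of all genes. It was 1 each in growth of iPSC-derived oocytes (22.0% of all genes), IVP@GRO (3.83%) and IVD@FGO (2.59%). It was 0 in growth of gonad-derived oocytes (15.8%), IVG@FGO (4.38%) and IVD@GRO (7.04%, or 0 beside 6.12% without GROs 17 to 24).

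The comparisons between sources gave these counts. In IVP@GRO 3 of 92 pathway genes passed (all higher), 3.26% beside 3.83% of all genes. In IVD@GRO it was 3 of 91 (all lower), 3.30% beside 7.04%, and 1 of 90 without in vivo GROs 17 to 24, 1.11% beside 6.12%. In IVP@FGO 6 of 89 passed (4 higher, 2 lower), 6.74% beside 6.21%, and in IVD@FGO 2 of 90 (both higher), 2.22% beside 2.59%. In IVG@FGO 1 of 91 passed (4.38% of all genes). It was Sesn1, a stress-induced inhibitor of mTORC1 signalling (9.39 against 4.17 CPM). In IVP@FGO the highest ratio was that of Inpp4b, a phosphoinositide phosphatase, at 9.97 CPM in iPSC-derived and 0.560 CPM in gonad-derived FGOs (log2 ratio 3.30), with 14 of 24 iPSC-derived FGOs above all gonad-derived ones. Gab1, an adaptor that brings PI3K to receptors, followed in pooled level at 8.41 against 1.28 CPM (2.32, or 1.32 by the medians of single oocytes), with 8 of 24 iPSC-derived FGOs above all gonad-derived ones, and was likewise higher in iPSC-derived GROs (8.63 against 1.56 CPM, 2.15), with 5.23% of its exonic bases also covered by Gm31105 on the opposite strand. Ccng2, a FOXO target in other tissues, was at 63.8 against 25.4 CPM in IVP@FGO (1.31, or 1.51 by the medians). Inpp5d, which encodes the phosphatase SHIP1, was lower there (31.3 against 66.5 CPM, -1.08), as was Pik3r2 (8.05 against 18.4 CPM, -1.15). Kitl, the ligand gene, pooled to 5.36 to 15.7 CPM, highest in the 6 dpp FGOs (15.7 CPM), followed by the in vivo FGOs (12.4 CPM), and each of these groups holds 2 of the 4 oocytes rich in granulosa transcripts. Without those 4 oocytes Kitl was 14.5 CPM in the 6 dpp FGOs and 11.6 CPM in the in vivo FGOs.

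The 8 genes differed in what their variation followed. With the sum of squares of log2(CPM + 1) split into stage, source within stage and oocytes within group, source held 55.9% for Kit, at percentile 98.1 of all genes, and 40.9% for Foxo3, where the median gene had 14.7%. Stage held 44.5% for Mtor and 48.8% for Rptor, where the median gene had 14.5%. For Akt1, 76.0% lay among oocytes of the same group (percentile 71.9 of all genes) and for Pik3ca 68.1% (percentile 59.8), where the median gene had 61.7%. Without in vivo GROs 17 to 24 the share of Pik3ca was 44.2% and that of Akt1 72.9%, source held 58.1% for Kit and 42.7% for Foxo3, and stage held 42.1% for Mtor and 45.9% for Rptor.

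**Figure D5:**
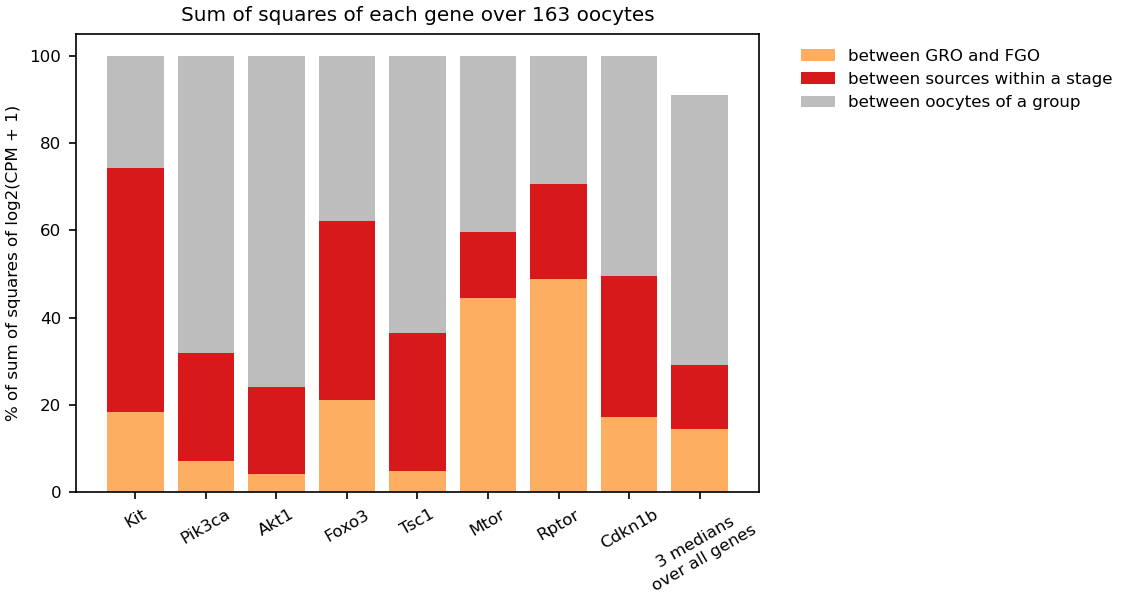
Percent of the sum of squares of log2(CPM + 1) over all oocytes (vertical axis) held by stage (GRO or FGO), by source within a stage and by oocytes within a group, for each of the 8 genes (bars); the last bar stacks 3 medians over all genes taken separately, so it does not reach the full height. Source is largest for Kit (55.9%), stage for Rptor (48.8%) and oocytes within a group for Akt1 (76.0%).

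Within groups 2 of the 28 pairs of the 8 genes correlated above 0.3. These values stand without a background from other gene pairs, and counting noise in low genes such as Mtor was not removed. After group means were removed, Pearson correlations over the 28 pairs ran from -0.22 to 0.44 across the oocytes of all 7 groups, with a median of 0.088, given as a description since oocytes of a group share their preparation. Tsc1 and Rptor had the highest value, 0.44 (0.47 without in vivo GROs 17 to 24). Pik3ca and Akt1 had 0.35, which was -0.17 without those oocytes. Gonad-derived FGO 19 was the highest of its group for Akt1, Tsc1, Mtor and Rptor and the lowest for Pik3ca.

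Across all oocytes, the genes most like each member in log2 level, among 10996 genes, were picked by Pearson correlation. For Kit these were Ktn1 (0.83), Pdia6 (0.81) and Ap1b1 (0.81). For Foxo3 they were Ranbp3 (0.85), Map2k1 (0.84) and Arrdc2 (0.82), and for Rptor Adcy1 (0.86), Dnmbp (0.85) and Scamp5 (0.85). For Mtor they were Aplp2 (0.81), Syvn1 (0.79) and Traip (0.79), and for Pik3ca Mycbp2 (0.79), B4galt6 (0.78) and Ranbp9 (0.77). Likeness was lower for Tsc1 (Fbxo42, 0.70), Akt1 (Ttyh3, 0.69) and Cdkn1b (Pdcd4, 0.66). These values hold the differences between groups as well as those within them, and with group means removed all were lower. They then ran from 0.72 to 0.76 for the 3 genes named for Pik3ca, from 0.57 to 0.76 for those of Foxo3, from 0.38 to 0.59 for those of Kit, from 0.39 to 0.47 for those of Mtor and from 0.47 to 0.49 for those of Rptor. The values were 0.56 for Fbxo42 with Tsc1, 0.61 for Ttyh3 with Akt1 and 0.40 for Pdcd4 with Cdkn1b. Without in vivo GROs 17 to 24, group means kept, Mycbp2 had 0.66 with Pik3ca, Ttyh3 0.50 with Akt1 and Pdcd4 0.57 with Cdkn1b.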

How the data were processed

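Single oocytes were sequenced by the Smart-seq2 method with 75-base reads. The authors deposited a table of read counts per gene and oocyte, with the exonic length of the 1 transcript counted for each gene. Per the submitters' processing notes, reads were aligned with STAR to GRCm38/mm10, and the study counted unique exonic reads of 1 transcript chosen at random per gene. A gene's level therefore depends on which transcript was chosen, and the use of strand in counting is not stated. All 163 columns matched a sample, 0 columns were of no sample, no spike-in rows were present, and 43 identifiers had no symbol.

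CPM, pooled CPM with exact Poisson intervals, log2 ratios (0.5 CPM added) and CPM per kb were computed in Python 3.11.15 (pandas 2.3.3, scipy 1.17.1). Genes entered a comparison with more than 1 CPM in at least 3 of its oocytes, and a ratio was called from 2-fold. No differential expression test was run, since the labels name no animal or culture; the ratio step was tested on simulated data. Alternatives were TMM (edgeR 4.0.16) and DESeq2 1.42.0 size factors in R 4.3.3, used for scaling only, mean or median of single oocytes, 0.1 or 2 CPM added, a 4-fold threshold, no filter, and oocytes left out. All members were described. Other pathway genes were named from the up to 3 largest called ratios in each direction per comparison. These needed at least 5 CPM in the higher group, and not all of them are named. The up to 3 most correlated genes per member were also named. Mlst8, Rictor, Kitl, the paralogues of members and the genes named under other observations were added after their values were seen. The members and the gene lists were chosen with earlier results of these data known. A search of the proteins for AKT target motifs was not run here.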

Additional observations from a re-analysis of the deposited data

How the results depend on the processing

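Of the 6 called ratios, that of Foxo3 in growth of iPSC-derived oocytes stayed past 2-fold under every alternative run, at 1.40 to 1.63 on the log2 scale; the other 5 came inside 2-fold under at least 1 alternative, and none of the 6 changed sign. The number of members past 2-fold in growth in vivo was 1. It was 0 without in vivo GROs 17 to 24, 2 without in vivo GROs 1 to 16 (both settings chosen after seeing the data) and 0 at a 4-fold threshold. In growth of iPSC-derived oocytes it was 3, and it was 1 with 2 CPM added and 0 at 4-fold. Rptor alone came inside 2-fold there with TMM, with DESeq2 size factors and by the medians of single oocytes. It also did so when some single oocytes were left out. In IVD@GRO it was 0, and 2 without in vivo GROs 1 to 16 (Pik3ca and Akt1). In IVP@FGO it was 2, and it was 0 by the medians of single oocytes, 0 at 4-fold and 1 to 2 when each oocyte was left out in turn. Of the other pathway genes, 3 passed in IVD@GRO with all oocytes and 1 without in vivo GROs 17 to 24. The median correlation between members within groups was 0.0878 and became 0.0464 without in vivo GROs 17 to 24. The causes were not tested beyond what each setting changes by its construction. TMM and DESeq2 size factors shifted the median of all genes by at most 0.069. No paired analysis was possible because the numbers in the titles do not pair oocytes across groups and no test was run. Depth limits Mtor most, whose pooled levels rest on the fewest reads of the 8 genes.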

Other observations

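The genes that set in vivo GROs 17 to 24 apart included others of the route. Of 89 further pathway genes tested between them and oocytes 1 to 16, 9 passed 2-fold (8 higher, 1 lower), a share of 10.1% beside 8.52% of all genes. Foxo1, the paralogue of Foxo3, pooled to 340 CPM in oocytes 17 to 24 (254.7 to 481.6 CPM in single oocytes) and 90.5 CPM in oocytes 1 to 16 (70.1 to 116 CPM), while Foxo3 was 30.2 and 40.8 CPM. Gsk3a, a kinase that AKT inhibits, stood at 15.1 against 3.25 CPM, and Eif4ebp3, a translation repressor under mTORC1, at 10.3 against 1.61 CPM. Ulk1, the autophagy kinase that mTORC1 restrains, stood at 53.4 against 14.7 CPM. Stk11, which encodes LKB1, stood at 40.1 against 15.1 CPM, and Cab39, whose product activates LKB1, at 122 against 37.9 CPM. The adaptor gene Grb2 stood at 31.0 against 12.4 CPM and the transcriptional regulator Cited2 at 64.9 against 18.2 CPM. The gene that was lower was Telo2, which encodes a factor for the assembly of mTOR complexes, at 0.595 against 2.39 CPM. Oocytes of both sets did not overlap for 8 of the 89 genes, 8.99% beside 6.73% of all genes. These were Foxo1, Gsk3a, Eif4ebp3, Ulk1, Cab39, Grb2, Cited2 and Rragc, a small GTPase gene of amino acid sensing that stayed inside 2-fold (266 against 139.9 CPM). Both shares are near those of all genes.

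In vivo FGOs 5, 7, 19 and 22, left out together as an alternative chosen with earlier results of these data known, held several of the highest values of their group. Foxo3 was highest in oocyte 5 (78.4 CPM), Mtor and Cdkn1b in oocyte 7 (7.63 and 18.6 CPM), and Rptor and Tsc1 in oocyte 22 (32.3 and 50.1 CPM). Without these 4 oocytes the log2 ratio of Foxo3 in IVG@FGO was 0.89 in place of 0.66, and that of Rptor in growth in vivo was -0.93 in place of -0.72.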
